A study of Saccharomyces cerevisiae with 16 samples.

Results

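The regions described here are stretches of budding yeast chromosome between neighbouring genes where Ty5 insertions were enriched with at least 2 different transcription factors. A region counted as enriched in a library where it held at least 8 insertions and its share of the library was at least 2 times its share of a background set, with 0.5 added to the background insertions. Of the 4383 regions whose flanking genes match in all tables, 275 (6.27%) were enriched in 2 or more of the 12 factor libraries and are called shared regions here, 425 in exactly 1 and 3683 in none. The regions were thus chosen by the insertion counts of the 12 factor libraries and of the background sets, so their folds in those libraries are a description and were not tested.

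All libraries came from the calling-card assay, in which a factor fused to Sir4 recruits the Ty5 retrotransposon to the DNA near its binding sites. The fusion was expressed from the ADH1 promoter on a plasmid with LEU2 and URA3 markers, not from the factor's own promoter, and Ty5 lay on a HIS3 plasmid under the inducible GAL1/10 promoter. In 4 libraries the strain with the Gal4 fusion lacked SIR4, GAL4 and a further gene, which was HMO1 (labelled BY4742), LEU3 (BY4743), SEF1 (BY4744) or YRM1 (BY4745). The 12 factor libraries, for Gal4, Leu3, Yrm1, Yrr1, Tea1, Lys14, Cat8, Cha4, Put3, Urc2, Hal9 and Aro80, came from BY4741 strains that lacked SIR4 and the chromosomal gene of the tagged factor. All 16 strains thus lacked SIR4, and in the 4 libraries with a further deletion the strain name and the deletion cannot be told apart. There was 1 library per group and hence no replicate error, and the exact 95% intervals given cover counting error only.

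The 12 factors are zinc cluster proteins, a family found in fungi whose members bind CGG triplets in DNA, often as dimers on a pair of triplets. Many answer to a nutrient or to stress: Gal4 activates the galactose genes, Leu3 genes of branched-chain amino acid synthesis, Put3 proline use, Cha4 the use of serine and threonine, Lys14 lysine synthesis, Aro80 aromatic amino acid breakdown and Cat8 gluconeogenesis. Yrm1 and Yrr1 are related regulators of multidrug resistance genes, Hal9 is linked to salt tolerance, Urc2 to uracil breakdown and Tea1 to the transcription of Ty1 elements. Promoters that several factors occupy are common in yeast.

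The factor libraries held 18295 (Cha4) to 36063 (Leu3) insertions, so that the minimum of 8 stood for 22.2 insertions per 100000 in the Leu3 library and 43.7 in the Cha4 library. The libraries with a further deletion held 6932 (hmo1Δ), 9628 (leu3Δ), 13882 (sef1Δ) and 10280 (yrm1Δ). A background set of 84109 insertions served 15 tables and another of 103922 served the Gal4 table alone, so all factor libraries but Gal4 share their background, and a region with few background insertions is raised in all of them together. The library labelled leu3Δ stood apart: the 61 regions enriched with Gal4 and another factor were at 0.961 times background in it, against 11.8 to 12.9 times in the other 3 libraries with a further deletion and 12.8 times in the Gal4 library. It is called by its label throughout and was not pooled with others.

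Most of the 275 regions were enriched with few factors. There were 158 enriched in 2 libraries, 59 in 3, 25 in 4, 15 in 5, 10 in 6, 5 in 7, 1 in 8 and 2 in 9, and none in 10 or more. The 33 regions enriched in 5 or more libraries became 21 when the Hal9 library was left out, while the count of regions in 2 or more lay between 229 (without Yrm1) and 270 (without Cha4). Of the 789 enriched values of these regions, 733 had a lower bound of the counting interval over 1 and 395 over 2. In 249 of the 275 regions the bound was over 1 in at least 2 libraries, and in 109 it was over 2. The rule had chosen these values by their fold and insertions, so the counts describe them and lend the regions no support.

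**Figure D1:**
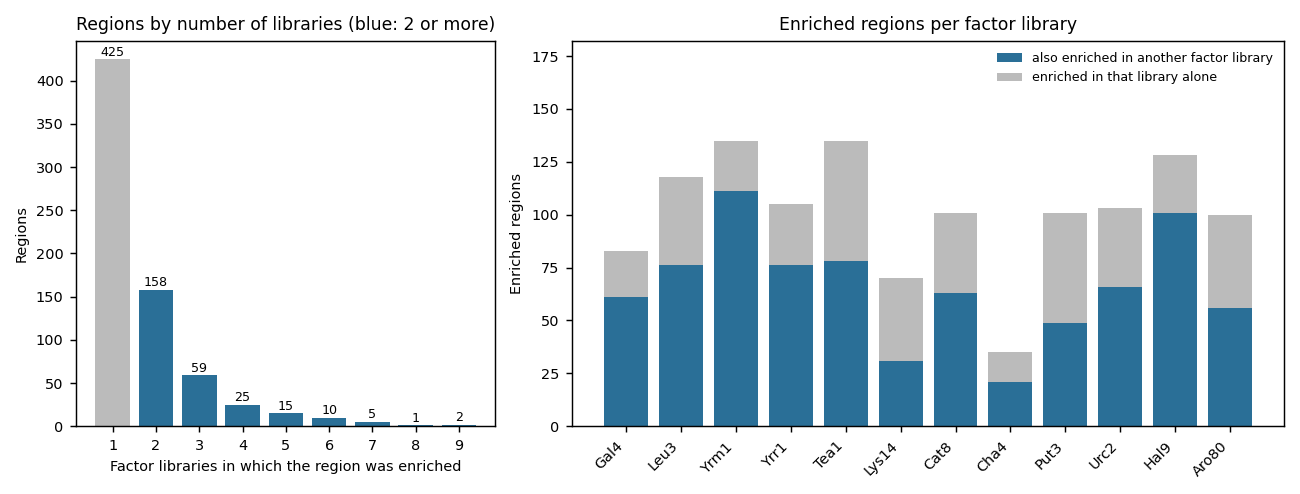
Left, number of regions (vertical axis) by the number of factor libraries in which they were enriched; blue bars, the 275 regions enriched in 2 or more. Right, number of enriched regions in each of the 12 factor libraries, split into those also enriched in another factor library (blue) and those enriched in that library alone (grey); the blue share lies between 44.3% for Lys14 and 82.2% for Yrm1.

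The libraries differed in how much of their enrichment fell in shared regions. The Yrm1 library had 111 of its 135 enriched regions among the 275, with 3.08% of all regions enriched. Hal9 had 101 of 128 (2.92% of all regions), Gal4 61 of 83 (1.89%) and Yrr1 76 of 105 (2.4%). Between 60% and 65% of the enriched regions were shared in Leu3, at 76 of 118 (2.69% of all regions), Urc2, at 66 of 103 (2.35%), Cat8, at 63 of 101 (2.3%), and Cha4, at 21 of 35 (0.799%). The share was lower for Tea1, at 78 of 135 (3.08%), Aro80, at 56 of 100 (2.28%), Put3, at 49 of 101 (2.3%), and Lys14, at 31 of 70 (1.6%). The 275 regions took 52.2% of all insertions in the Yrr1 library, 45.9% in Yrm1, 40.9% in Hal9, 40.4% in Gal4 and 38.4% in Tea1. They took 16.9% in the Lys14 library, the lowest value of the 12, and 10.8% of the insertions in either background set.

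The enrichment of a shared region was mostly unequal between its factors. The highest fold of a region had a median of 7.36 and ran from 2.02 to 297, whereas the second highest had a median of 3.00 and reached 97.8. In 42 regions the highest fold was at least 5 times the second, and in 16 of these at least 10 times. In 112 regions the highest fold was under 1.5 times the second. The second fold was 10 or more in 29 regions, 5 or more in 74 and under 3 in 137, and in 38 regions every enriched fold was under 3. The highest fold was most often that of Yrm1 (35 regions), Yrr1 (34), Hal9 (34), Gal4 (32), Leu3 (31) or Tea1 (30), and least often that of Aro80 (9), Lys14 (8) or Cha4 (7).

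**Figure D2:**
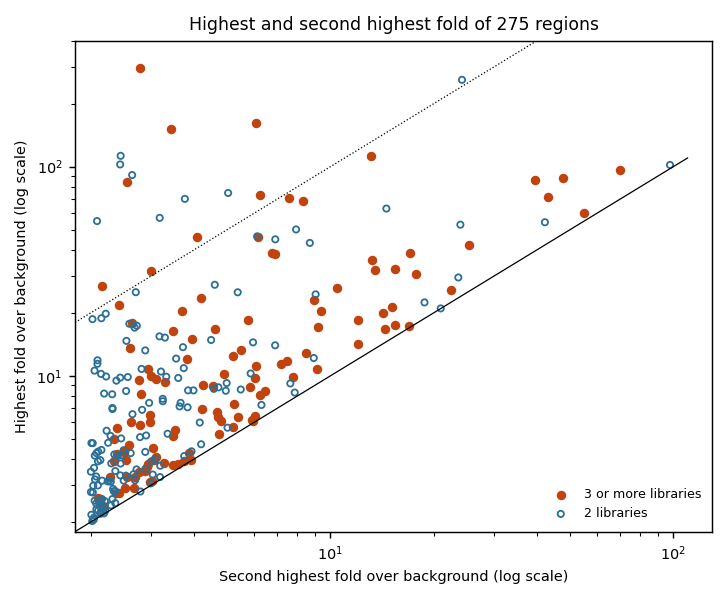
Highest fold over background (vertical, log scale) against the second highest (horizontal, log scale) for the 275 regions, counting libraries with at least 8 insertions; filled points, regions enriched in 3 or more libraries, open points, in 2. Points on the solid line have equal folds and the 16 points on or above the dotted line a highest fold at least 10 times the second, and 137 regions lie left of a second fold of 3.

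Regions close to the threshold had values that a few insertions would move. The 3 regions just inside were REX3/AHP1, with a second highest fold of 2.002 from 28 insertions in the Put3 library, ACS2/RNH203, with 2.002 from 19 in Aro80, and SPO13/MIP6, with 2.008 from 14 in Cat8. The 3 just outside were MOT2/ARG5,6, with 1.999 from 39 insertions in Leu3, and DPH5/IDP2 and RPM2/UFO1, each with 1.998 in Yrm1 from 19 and 57 insertions.

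The region enriched with the most factors, tied at 9 libraries, was VMA13/YPR036W-A on chromosome XVI, 645272 to 645950. It lies downstream of VMA13, a subunit of the vacuolar proton pump, and upstream of YPR036W-A, the sporulation gene SPO24. It held 806 insertions in the Tea1 library, 581 in Yrr1, 551 in Yrm1, 135 in Cat8, 98 in Gal4, 57 in Hal9, 39 in Put3, 29 in Leu3 and 22 in Aro80, against 31 in the background of 84109 and 34 in that of 103922. The folds were 60.3 in Tea1 (interval of the ratio 42.8 to 90.8), 54.8 in Yrr1 (38.8 to 82.7) and 46.9 in Yrm1 (33.2 to 70.9). These intervals share the counting error of the same 31 background insertions, so their overlap does not show whether the libraries differ. Lower folds were 15.1 in Cat8, 8.77 in Gal4, 8.12 in Hal9 and 4.38 in Put3. Aro80 (2.24) and Leu3 (2.15) were near the threshold, and the other 3 libraries were between 0.486 and 1.24.

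SOD1/ADO1 on chromosome X, 623014 to 623581, was also enriched in 9 libraries but at low folds throughout. It holds the promoters of SOD1, the copper-zinc superoxide dismutase, and ADO1, adenosine kinase. It held 42 insertions in the Hal9 library, 59 in Tea1, 37 in Yrm1, 26 in Lys14, 20 in Cha4, 39 in Leu3, 23 in Aro80, 18 in Cat8 and 17 in Put3, with folds from 6.39 in Hal9 (3.95 to 10.8) to 2.04 in Put3 (1.07 to 3.9). Its background differed between the sets, at 29 of 84109 and 54 of 103922 insertions, and with the second set for every library it was enriched in 6.

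TPO4/MOD5 on chromosome XV, 836431 to 837674, was enriched in 8 libraries. It holds the promoters of TPO4, a polyamine transporter, and MOD5, a tRNA-modifying enzyme. Insertions numbered 356 in Yrm1, 114 in Hal9, 85 in Yrr1, 87 in Leu3, 84 in Gal4, 39 in Aro80 and 32 each in Put3 and Cat8, against 55 in the background of 84109. The fold was 17.2 in Yrm1 (13.04 to 23.5) and 9.22 in Hal9 (6.68 to 13.1), with the other enriched libraries between 2.03 and 4.55.

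**Figure D3:**
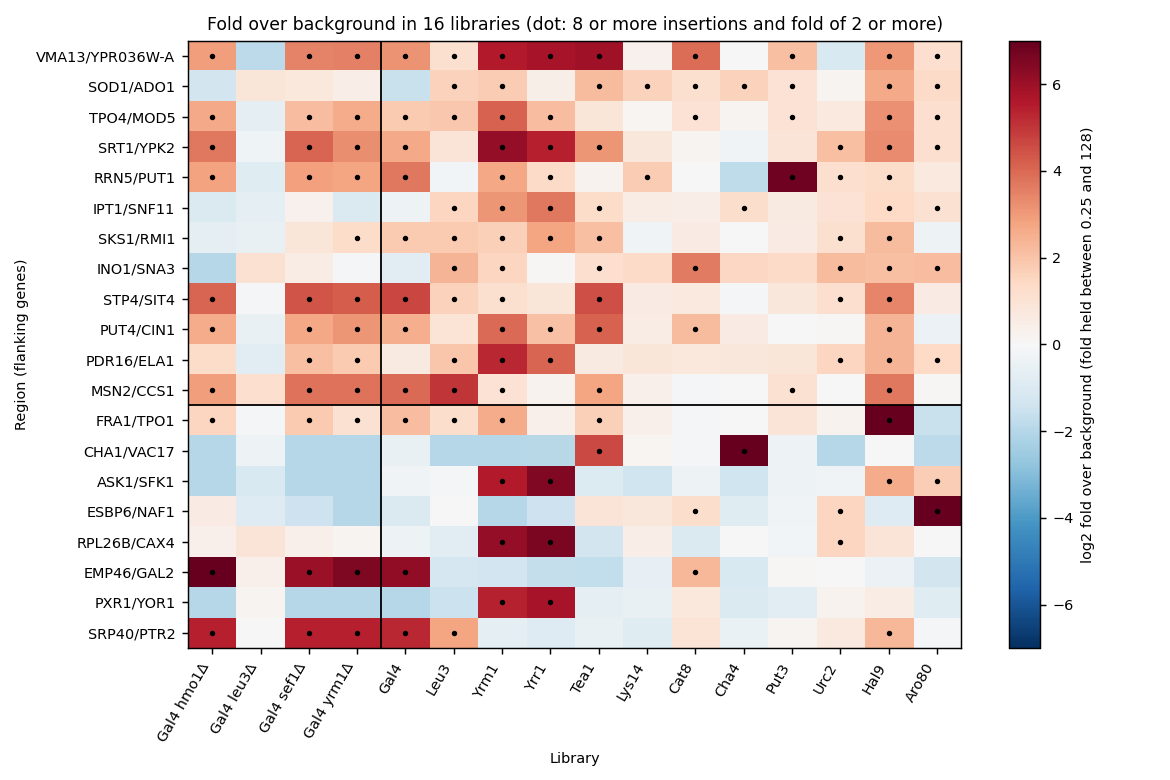
Fold over background on a log2 colour scale (values held between 0.25 and 128 times) for the 12 regions enriched in the most factor libraries (above the horizontal line) and the 8 further ones with the largest summed share (below it), with the 4 Gal4 libraries whose strains carry a further deletion left of the vertical line. Dots mark at least 8 insertions and a fold of 2 or more: VMA13/YPR036W-A and SOD1/ADO1 carry 9 each among the 12 factor libraries, and no cell of the leu3Δ column has a dot.

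The proline genes PUT1 and PUT4 differed in the factor with the highest fold. RRN5/PUT1 on chromosome XII, 424774 to 425186, holds the promoter of PUT1, the proline oxidase gene that Put3 activates. It held 1004 insertions in the Put3 library, a fold of 113 (80.2 to 170), followed by 83 in Gal4 (fold 13.1), 78 in Yrm1 (6.64), 30 in Lys14 (3.37), 27 in Yrr1 (2.55), 17 in Hal9 (2.42) and 23 in Urc2 (2.24). The Gal4 fold rests on 19 insertions in the background of the Gal4 table, and the other folds on 31 in that of the other tables. Per 100000 insertions RRN5/PUT1 held 247 in Gal4 and 249 in Yrm1, so their order by fold rests on the background sets. With the background of the Gal4 table for every library RRN5/PUT1 was enriched in 10. PUT4/CIN1 on chromosome XV, 988782 to 989789, with the promoter of the proline permease gene PUT4, was enriched in 6 libraries and Put3 was not among them. It held 643 insertions in Tea1 (fold 17.5), 497 in Yrm1 (15.4), 194 in Gal4 (5.79), 99 in Hal9 (5.14), 115 in Cat8 (4.67) and 120 in Yrr1 (4.12), but 25 in Put3 (1.02).

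Of 16 gene lists, that of drug and polyamine transporter genes had the largest share of its promoters in shared regions. Over all genes, 370 of 4393 promoters within the 4383 regions (8.42%) lay in the 275, and of the 23 promoters of drug and polyamine transporter genes 11 did (47.8%): AQR1, AZR1, PDR12, PDR15, PDR16, QDR2, SNG1, SNQ2, TPO1, TPO4 and YOR1. Among them PDR16 belongs to the drug resistance network but is not a transporter gene. The second highest fold of their regions, whatever the number of insertions, had a median of 2.16, against 1.23 over all regions with a promoter. Regions with 20 or more background insertions were more often shared, and at such regions the counts were 10 of 14 (71.4%), against 237 of 1033 (22.9%) over all genes. The libraries share a background and the lists were chosen with earlier results known, so these shares describe the lists and were not tested.

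Yrm1 was enriched in 9 of the regions of these 11 promoters, against 111 of all 275, and Yrr1 in 6, against 76. Those 6 were enriched with Yrm1 as well, as were 65 of the 76. The 76 are those of 105 regions enriched with Yrr1 that had a second enriched library, so this overlap is in part set by the rule. Yrm1 was enriched in 3.08% of all 4383 regions. Yrm1 or Yrr1 had the highest fold in 7 of the 11, against 69 of the 275. HSV2/AZR1 on chromosome VII, 942215 to 942806, upstream of AZR1, a transporter linked to azole resistance, held 741 insertions in Yrm1 and 642 in Yrr1, against 19 in the background. The folds were 102 (66.5 to 175) and 97.8 (63.7 to 168), the highest second fold of all 275 regions, and the other 10 libraries were between 0 and 1.26. PXR1/YOR1, upstream of the ABC transporter gene YOR1, held 849 insertions in Yrr1 (fold 54.2) and 732 in Yrm1 (42.2). SNG1/YPP1, upstream of SNG1, held 829 in Yrr1 (86.4) and 420 in Yrm1 (39.5), and Urc2 was also enriched there at a fold of 2.47. GAL3/SNQ2, upstream of the ABC transporter gene SNQ2, held 817 in Yrr1 (63.0) and 209 in Yrm1 (14.6). At PDR16/ELA1, upstream of PDR16, a phosphatidylinositol transfer protein of the drug resistance network, Yrm1 had 424 insertions (38.5), Yrr1 170 (17.1), Hal9 34 (5.17), Leu3 48 (3.79), Urc2 27 (2.8) and Aro80 24 (2.61).

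FRA1/TPO1 differed from these in its leading factor. Upstream of the polyamine transporter gene TPO1, it held 1681 insertions in the Hal9 library, a fold of 162 (122 to 225). Yrm1 followed with 105 (6.06), Gal4 with 60 (4.47), Tea1 with 62 (3.14) and Leu3 with 46 (2.31), while Yrr1 had 20 (1.28).

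Shared regions of Yrm1 and Yrr1 were not limited to transporter genes. SRT1/YPK2 on chromosome XIII, 469476 to 473420, is a long region with the promoter of SRT1, which makes dolichol, and with LAF1 and YMR103C inside it. It held 1161 insertions in Yrm1 (fold 71.6, 53.4 to 101), 630 in Yrr1 (43.0), 97 in Hal9 (10.0), 155 in Tea1 (8.4), 125 in Gal4 (6.18), 62 in Urc2 (4.37) and 31 in Aro80 (2.29). ASK1/SFK1, between a kinetochore subunit gene and a plasma membrane protein gene, held 1087 in Yrr1 (88.5), 647 in Yrm1 (47.5), 50 in Hal9 (6.15) and 38 in Aro80 (3.35). RPL26B/CAX4 held 927 in Yrr1 (96.6), 744 in Yrm1 (70.0) and 26 in Urc2 (2.79). By orientation it holds the promoter of neither flanking gene, but YGR035C and YGR035W-A lie inside it.

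Among the 13 shared regions with promoters of sphingolipid and sterol genes, Yrr1 was enriched in 8, against 76 of all 275. Yrm1 and Tea1 were enriched in 7 each, against 111 and 78 of the 275. IPT1/SNF11 and SKS1/RMI1 were each enriched in 7 libraries with Yrr1 highest. IPT1/SNF11 lies on chromosome IV, 591344 to 592439, and holds the promoters of IPT1, the last enzyme of complex sphingolipid synthesis, and SNF11, a subunit of the SWI/SNF remodeller. It held 420 insertions in Yrr1 (fold 12.8) and 309 in Yrm1 (8.5), and the other 5 were between 2.11 in Aro80 and 2.8 in Leu3. SKS1/RMI1 lies on chromosome XVI, 502183 to 503517, and holds the promoters of a protein kinase gene and of RMI1, a partner of a DNA helicase. Its folds were within a narrow range, from 6.73 in Yrr1 with 85 insertions to 2.21 in Urc2 with 27. Sphingolipid and sterol genes as a list had 13 of 51 promoters in the 275 regions (25.5%, against 8.42% of all genes), with a median second fold of 1.60, and at 20 or more background insertions 10 of 24 (41.7%, against 22.9%). ERG11/SOD2, upstream of the sterol demethylase gene ERG11, was led by Aro80 with 87 insertions (5.54).

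Genes of regulators of nutrient use and stress gave the most promoters of any list. Of 75 such promoters 25 lay in shared regions (33.3%), with a median second fold of 1.65, and at 20 or more background insertions 22 of 41 did (53.7%, against 22.9% of all genes). These promoters lay in 24 regions, of which Hal9 was enriched in 15, Leu3 in 14, Tea1 in 12 and Gal4 in 9. Over all 275 regions these 4 were enriched in 101, 76, 78 and 61. MSN2/CCS1 on chromosome XIII, 346517 to 347511, upstream of the stress regulator gene MSN2, held 381 insertions in Leu3 (fold 32.3), 122 in Gal4 (15.4), 80 in Hal9 (13.1), 78 in Tea1 (6.68), 16 in Put3 (2.06) and 21 in Yrm1 (2.05). STP4/SIT4 on chromosome IV, 368211 to 369771, with the promoters of a zinc finger protein gene and of a phosphatase gene of nutrient signalling, held 657 in Gal4 (25.9, 20.5 to 33.3) and 728 in Tea1 (22.4, 17.8 to 29.0), whose intervals overlap although they rest on different background sets. Hal9 had 185 there (10.9), Leu3 101 (3.08), Urc2 57 (2.28) and Yrm1 63 (2.21).

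A further 3 regulator promoters were named as the top regions of pairs of factors that include Hal9. AHA1/ADR1, upstream of ADR1, an activator of genes for non-fermentable carbon, held 267 insertions in Gal4 (fold 17.4) and 161 in Hal9 (17.0), then 108 in Leu3 (5.93), 47 in Cat8 (3.89) and 48 in Aro80 (3.63). SOL4/MGA1, upstream of MGA1, a gene of the heat shock factor family, held 171 in Hal9 (35.7) and 122 in Leu3 (13.2), with 48 in Yrr1 (6.63) and 25 in Cat8 (4.09). ARG80/MCM1, upstream of MCM1, a general regulator of mating and cell cycle genes, held 122 in Hal9 (14.2), 199 in Leu3 (12.1) and 85 in Aro80 (7.09). Gal4 (72 insertions, 4.59), Cat8 (32, 2.92) and Tea1 (37, 2.26) were also enriched at ARG80/MCM1. KTI12/HAP4, with the promoter of the respiration activator gene HAP4, held 876 insertions in Gal4 (21.7), and Tea1 (100 insertions, 2.42) and Hal9 (52, 2.39) were just over the threshold. Of 42 promoters of a list of zinc cluster genes, 7 lay in shared regions (16.7%, median second fold 1.43), and 4 of 12 at 20 or more background insertions (33.3%, against 22.9% of all genes). They were those of ECM22, MAL33, PDR3, STB5, TBS1 and UME6, and of XBP1, a repressor gene that the list holds although it is of another family. UME6/MSS4, with the promoter of the early meiosis regulator gene UME6, held 70 insertions in Tea1 (8.46), 47 in Yrm1 (6.46), 30 in Yrr1 (4.57) and 13 in Put3 (2.36). PHO89/MAL33 held 321 in Tea1 (17.8), 25 in Hal9 (2.64) and 26 in Put3 (2.16).

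Permease genes for amino acids, peptides and ammonium had 8 of 24 promoters in shared regions (33.3%, median second fold 1.71), and 7 of 17 at 20 or more background insertions (41.2%, against 22.9% of all genes). These were AGP1, DIP5, LYP1, MEP3, PTR2, PUT4, TAT1 and TAT2. SRP40/PTR2, upstream of the peptide transporter gene PTR2, held 1096 insertions in Gal4 (fold 38.7, 31.3 to 49.0), 225 in Leu3 (6.77) and 87 in Hal9 (5.04). MEP3/VPS66, upstream of an ammonium permease gene, held 561 in Cha4 (84.6), with 33 in Tea1 (2.55) and 15 in Hal9 (2.21). Among genes of amino acid synthesis and nitrogen use, 14 of 80 promoters were in shared regions (17.5%), with a median second fold of 1.23, the same as over all regions with a promoter. At 20 or more background insertions the count was 9 of 34 (26.5%), near the 22.9% of all genes. Tea1 was enriched in 8 of those 14 regions, against 78 of all 275, and Leu3 in 6, against 76. HMS2/BAT2, upstream of the cytosolic branched-chain aminotransferase gene BAT2, held 595 insertions in Tea1 (46.0), and 24 in Leu3 (1.84), which regulates genes of that pathway. Cha4 (27 insertions, 4.07), Yrm1 (46, 4.05), Cat8 (32, 3.69) and Hal9 (15, 2.21) were also enriched there.

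CHA1/VAC17 on chromosome III, 16880 to 17290, was the shared region with the highest Cha4 fold among those named. Upstream of CHA1, the serine and threonine deaminase gene that Cha4 activates, it held 1273 insertions in the Cha4 library, a fold of 260 (175 to 426). Tea1 was the only other enriched library there, with 231 insertions and a fold of 24.2 (15.95 to 40.3), and the remaining 10 were between 0 and 1.1. Cha4 also led at MMF1/PCL7, with the promoters of MMF1, a mitochondrial protein gene, and PCL7, a Pho85 cyclin gene: 246 insertions (68.5), against 59 in Leu3 (8.34) and 38 in Tea1 (5.43). Hal9 (8 insertions) and Aro80 (11) were just over the threshold there at 2.18 and 2.14. LYS2/TKL2, upstream of the lysine synthesis gene LYS2, was led by Lys14 with 537 insertions (152), and Urc2 (14 insertions, 3.43) and Hal9 (8, 2.87) were the others.

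A list of galactose genes and other known Gal4 targets had 5 of 12 promoters in shared regions (41.7%, median second fold 1.90), and 4 of 7 at 20 or more background insertions (57.1%, against 22.9% of all genes). They were those of GAL2, GAL3 and GAL7, and of FUR4 and PCL10, which are no galactose genes and were listed as Gal4 targets. Gal4 was enriched in all 5, against 61 of all 275, which in part restates how the list was made. At EMP46/GAL2, upstream of the galactose permease gene, Gal4 had 1781 insertions (fold 74.8, 59.6 to 96.6) and Cat8 68 (5.03, 3.45 to 7.54), with the other 10 libraries between 0.298 and 1.04. At GAL7/GAL10, upstream of the galactose enzyme gene GAL7, Gal4 had 1410 (102) and Cat8 26 (2.44). At GAL1/FUR4, upstream of the uracil permease gene FUR4, Urc2 was highest with 203 insertions (18.6), Gal4 had 138 (12.01) and Lys14 20 (2.11). The Ty5 plasmid carries the GAL1/10 promoter, and ADH1 lends the fusion its promoter. In all, 6 of the 275 regions are flanked by GAL1, GAL10, ADH1, the marker gene LYS2 or the deleted genes HMO1 and SEF1: GAL7/GAL10, GAL1/FUR4, ADH1/PHM7, LYS2/TKL2, ARG82/HMO1 and UBP13/SEF1.

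Among 10 shared regions of carbon enzyme genes Cat8 was enriched in 6, against 63 of all 275. DCP2/MLS1, with the promoter of the malate synthase gene MLS1, held 293 insertions in Cat8 (fold 42.0, 28.3 to 68.0), 193 in Aro80 (25.3, 16.9 to 41.3) and 25 in Hal9 (4.58). MDH2/TRM13, with the promoter of the gluconeogenic malate dehydrogenase gene MDH2, held 364 in Cat8 (38.2), 86 in Yrm1 (6.89), 31 in Hal9 (4.15) and 21 in Aro80 (2.01). PUS2/PYC1, upstream of the pyruvate carboxylase gene PYC1, was led by Tea1 with 207 (15.01), and Leu3 (55, 3.95), Cat8 (32, 3.46) and Urc2 (27, 2.55) were also enriched. Enzymes of glycolysis, fermentation and gluconeogenesis had 10 of 39 promoters in shared regions (25.6%, median second fold 1.34), and at 20 or more background insertions 9 of 32 (28.1%, against 22.9% of all genes). A list of transporters and sensors of sugars and other carbon sources had 6 of 25 (24.0%, 1.58), and at 20 or more background insertions 5 of 14 (35.7%). They were those of the sugar transporter genes GAL2, HXT6 and HXT13, of the lactate permease gene JEN1, and of ATO2 and ATO3, of the acetate and ammonium transporter family. HXT6/HXT3, upstream of HXT6, was led by Hal9 with 61 insertions (8.97) and Gal4 with 80 (4.53).

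ESBP6/NAF1 had the highest fold of all 275 regions. It holds the promoters of ESBP6, a gene of the monocarboxylate permease family, and NAF1, a gene for assembly of small nucleolar ribonucleoproteins. Aro80 had 1523 insertions there, a fold of 297 (188 to 536), while Urc2 (15 insertions, 2.79) and Cat8 (11, 2.34) passed the threshold by little. INO1/SNA3 on chromosome X, 135933 to 136372, upstream of the inositol synthesis gene INO1, was enriched in 7 libraries on small counts. It held 30 insertions in Cat8 (12.4), 19 in Leu3 (5.21), 13 in Urc2 (4.69), 12 in Aro80 (4.54), 8 in Hal9 (4.22), 9 in Yrm1 (2.84) and 8 in Tea1 (2.22). Its background was 8 of 84109 insertions and 25 of 103922, and with the second set for every library INO1/SNA3 was enriched in 2.

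The remaining lists had shares from 8.51% to 25.0%, against 8.42% of all genes, and from 8.7% to 45.5% at 20 or more background insertions, against 22.9%. Metal, ion, oxidant and redox genes had 12 of 48 promoters in shared regions (25.0%, median second fold 1.61), and 10 of 22 at 20 or more background insertions (45.5%), and AAC1/FET3 was led by Leu3 with 72 insertions (fold 9.08). Citric acid cycle and respiratory genes had 11 of 66 (16.7%, 1.40), but 6 of 27 (22.2%) at 20 or more background insertions. Cyclin and cell cycle genes had 4 of 29 (13.8%, 1.29), but 2 of 13 (15.4%) at such regions. Pyrimidine and purine genes had 5 of 31 (16.1%, 1.30), and 3 of 9 (33.3%). Cell wall and flocculation genes had 7 of 44 (15.9%, 1.49) but 2 of 23 (8.7%) at 20 or more background insertions. A list of nutrient signalling genes, most of them for kinases, phosphatases and their partners, had 4 of 47 (8.51%, 1.36), and 4 of 17 (23.5%). They were those of the kinase gene HRK1, the phosphatase gene SIT4, the GTPase gene RAS1 and SNF11.

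Ribosomal protein genes were the list with the lowest share. Of 132 such promoters 5 lay in shared regions (3.79%, against 8.42% of all genes), those of RPL43B, RPL7B, RPL8B, RPS11B and RPS26B, and their regions had a median second fold of 0.845. At 20 or more background insertions the count was 4 of 43 (9.3%, against 22.9% of all genes), a share above that of the cell wall list. RPL43B is flanked on either side by a shared region: IME1/RPL43B, with the promoters of RPL43B and of the meiosis activator gene IME1, held 1169 insertions in Yrr1 (fold 70.1) and 53 in Cat8 (3.76). On the other side RPL43B/SFC1, upstream of the mitochondrial succinate-fumarate carrier gene SFC1, held 584 in Cat8 (91.2) and 20 in Yrr1 (2.64).

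Such neighbouring regions made up part of the set. Of 4116 pairs of regions that flank 1 gene, both belonged to the 275 in 27 (0.656%), which involved 51 regions, so these are not independent of each other. In 22 of the pairs at least 1 library was enriched on either side of the gene, and in 11 the leading library was the same. No like count is given for shared regions that are not neighbours, so these counts do not show an effect of position. Yrr1 led on either side of ASK1, CAX4 and SNG1, with Yrm1 also enriched in each of those regions, and Cat8 led on either side of MLS1. Elsewhere the leading library changed across the gene, as at STP4, where Tea1 led KNH1/STP4 (94 insertions, fold 5.09) and Gal4 led STP4/SIT4.

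By position, the shared regions were mostly upstream of genes. By the orientation of the flanking genes, 105 of the 275 (38.2%) hold the promoters of both neighbours, 160 (58.2%) of 1 and 10 (3.64%) of none. Over all 4383 regions these shares were 25.8%, 48.5% and 25.6%, and among regions enriched in exactly 1 library 35.5%, 56.5% and 8.0%. Another gene lies inside 9 of the 10 without a flanking promoter. None of the 33 regions enriched in 5 or more libraries lacked a promoter, and 10 of them (30.3%) held both. The shared regions were longer, with a median of 947 bp, against 750 bp for regions enriched in 1 library and 375 bp for those in none. Length and promoter class both moved with the number of background insertions. They were found on all 16 chromosomes, from 2.86% of the regions of chromosome III to 7.67% of those of chromosome XV.

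Background insertions moved with membership. The shared regions had a median of 28 background insertions (3 to 160) in the set of 84109, against 14 in regions enriched in 1 library and 5 in those enriched in none. Of regions with 0 to 4 background insertions 5 of 1848 (0.271%) were shared, and of those with 5 to 9, 10 to 19, 20 to 39 and 40 or more the shares were 2.34%, 9.02%, 19.5% and 30.0%. The minimum of 8 insertions bears most on regions with few insertions, and its part in this order was not tested. The 5 with fewer than 5 background insertions were MDM35/ASK1, SLA2/ATG2, HXT11/HPF1, WHI5/LPX1 and YPR036W-A/ERV2. Among regions of like background the lengths were close or the order turned: the median was 707 bp for shared regions against 666 bp for all regions at 10 to 19 background insertions, but 426 bp against 443 bp at 5 to 9, 920.5 bp against 1029 bp at 20 to 39 and 1398 bp against 1741 bp at 40 or more. The share without a promoter was 0.0% of shared regions against 9.78% of all regions at 5 to 9, 2.74% against 8.78% at 10 to 19, 4.35% against 6.16% at 20 to 39 and 2.44% against 4.76% at 40 or more, where 2 of 82 shared regions lacked one. Of all regions with 0 to 4 background insertions, 49.5% lacked one. The excess of regions with both promoters was not seen throughout: the share was 39.7% of shared regions against 34.0% of all regions at 10 to 19 background insertions, but 32.6% against 41.8% at 20 to 39 and 47.6% against 49.1% at 40 or more.

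The 4 Gal4 libraries whose strains carry a further deletion took no part in choosing the regions and so allow a test. Each region was compared with the background by a two-sided Fisher's exact test, with Benjamini-Hochberg adjustment over all of the 4383 regions holding at least 10 insertions in library and background together. The background counts were used by the rule, and the test compares a library with that background set and not 2 conditions. The question is how far regions enriched with Gal4 and others were again above background with the same fusion in another strain.

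Above background were 43 of the 250 tested shared regions in hmo1Δ, where 3.83% of all 1567 tested regions were, 65 of 253 in sef1Δ (5.82% of 1597) and 55 of 251 in yrm1Δ (4.42% of 1583). Below background were 2 in hmo1Δ (0.191% of all tested regions), 10 in sef1Δ (5.89%) and 1 in yrm1Δ (1.45%). In the library labelled leu3Δ, 1 of 257 was above (0.175% of 1719) and 0 were below (0.0%). By the fold and minimum used for the factor libraries, 45 of the shared regions were enriched in hmo1Δ (1.51% of all 4383), 5 in leu3Δ (0.479%), 67 in sef1Δ (2.17%) and 59 in yrm1Δ (1.83%). The regions above background were mostly those also enriched in the Gal4 library. Of the 61 regions enriched with Gal4 and another factor, 42 were above background in hmo1Δ, 56 in sef1Δ and 51 in yrm1Δ, of which 40 in all 3, and none was in leu3Δ. Among the 22 regions enriched with Gal4 alone, 10 of 18 tested were above in hmo1Δ, 18 of 20 in sef1Δ, 12 of 20 in yrm1Δ and 0 of 18 in leu3Δ. Of the 214 shared regions not enriched with Gal4, 1 of 189 tested was above in hmo1Δ, 9 of 192 in sef1Δ, 4 of 190 in yrm1Δ and 1 of 197 in leu3Δ.

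The Gal4 library defined these sets of regions, and its values, over the background of 103922, are a description. Pooled over the 61 regions, insertions were 12.9 times background in hmo1Δ (12.3 to 13.6), 0.961 times in leu3Δ (0.849 to 1.085), 11.8 times in sef1Δ (11.2 to 12.3) and 12.1 times in yrm1Δ (11.5 to 12.7), against 12.8 times in the Gal4 library (12.3 to 13.3). Over the 214 regions not enriched with Gal4 the values were 0.551, 1.09, 0.710 and 0.552 in the same 4 libraries, against 0.506 in the Gal4 library. Regions enriched in no factor library were at 0.202, 1.08, 0.212 and 0.185, against 0.203 in the Gal4 library. The 22 regions enriched with Gal4 alone were at 7.12, 0.931, 7.03 and 7.31 times background, against 8.95 in the Gal4 library. Because the shares within each library add up to a constant, a value under 1 goes with a larger share elsewhere.

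**Figure D4:**
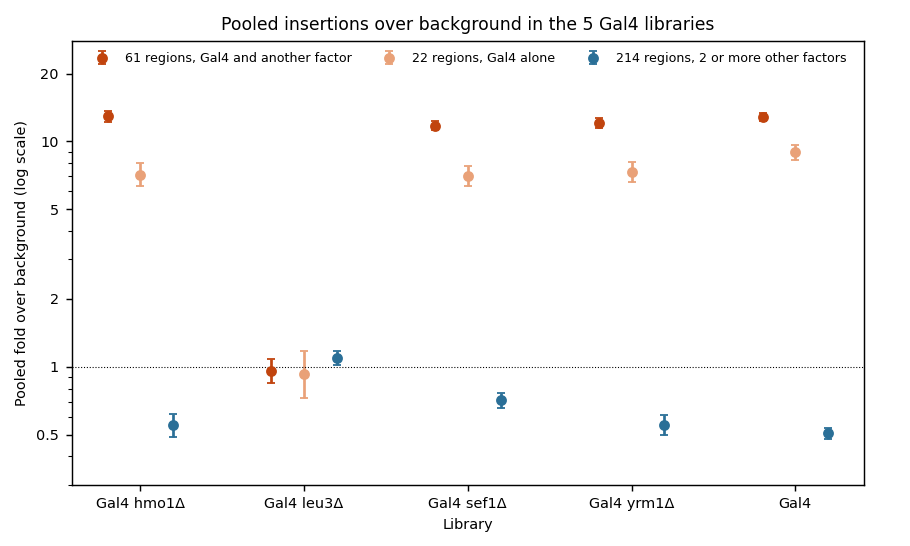
Pooled insertions over background (vertical, log scale) in the 4 Gal4 libraries whose strains carry a further deletion and in the Gal4 library, for the 61 regions enriched with Gal4 and another factor, the 22 enriched with Gal4 alone and the 214 enriched with 2 or more other factors; bars, exact 95% intervals for counting error. The 61 regions sit between 11.8 and 12.9 in every library but that labelled leu3Δ, where they are at 0.961.

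Single regions gave the same picture. EMP46/GAL2 held 493 insertions in hmo1Δ, 7 in leu3Δ, 526 in sef1Δ and 539 in yrm1Δ, against 1781 in the deeper Gal4 library. As folds over background these were 126, 1.29, 67.1 and 92.8, against 74.8. SRP40/PTR2 held 278, 9, 560 and 414 insertions in hmo1Δ, leu3Δ, sef1Δ and yrm1Δ, against 1096 in Gal4, with folds of 43.5, 1.01, 43.8 and 43.7, against 38.7. STP4/SIT4, where the intervals of Gal4 and Tea1 overlapped, held 107, 8, 265 and 176 insertions, against 657 in Gal4, with folds of 17.0, 0.914, 21.0 and 18.8, against 25.9. RRN5/PUT1 and VMA13/YPR036W-A, led by another factor, were also above background in hmo1Δ, sef1Δ and yrm1Δ. Not all such regions were. FRA1/TPO1, led by Hal9, did not pass in hmo1Δ (fold 2.87, adjusted p = 0.0806 by Fisher's exact test) or in yrm1Δ (2.11, 0.222). At RRN5/PUT1 the folds in hmo1Δ, leu3Δ, sef1Δ and yrm1Δ were 6.93, 0.555, 7.31 and 6.75, against 13.1 in Gal4. The Gal4 folds rest on another background set, which held 19 insertions at RRN5/PUT1, against 31 in that of the other libraries. Per 100000 insertions RRN5/PUT1 held 260, 20.8, 274 and 253 in the same order, against 247 in Gal4. At VMA13/YPR036W-A the folds were 7.70, 0.277, 11.0 and 11.7, against 8.77 in Gal4. At EMP46/GAL2, SRP40/PTR2, STP4/SIT4, RRN5/PUT1 and VMA13/YPR036W-A the adjusted p was under the threshold of 0.05 in hmo1Δ, sef1Δ and yrm1Δ, with RRN5/PUT1 in hmo1Δ the weakest at 3.53e-07 by Fisher's exact test.

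There were 5 regions enriched with Gal4 that passed in none of hmo1Δ, sef1Δ and yrm1Δ, all with Gal4 folds from 2.04 to 3.53: PMA1/PMC1, SDS23/OLE1, YHR080C/LRP1, SOK2/SPO20 and SKS1/RMI1. These libraries are less deep than that of Gal4, so not passing does not show a loss. At PMA1/PMC1 the interval of the ratio was 1.07 to 2.71 in hmo1Δ, 1.10 to 2.25 in sef1Δ and 1.16 to 2.53 in yrm1Δ. At SDS23/OLE1 the folds were 0.373, 0.746 and 1.01 in the same order. SKS1/RMI1, enriched in 7 factor libraries, held 2 insertions in hmo1Δ, 3 in leu3Δ and 11 each in sef1Δ and yrm1Δ, against 44 in the deeper Gal4 library. The folds at SKS1/RMI1 were 0.647 in hmo1Δ, 0.699 in leu3Δ and 2.40 in yrm1Δ (1.12 to 4.87), against 3.53 in Gal4. In yrm1Δ it thus met the fold and minimum used for the factor libraries.

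Of the 214 regions not enriched with Gal4, 193 were tested in at least 1 of hmo1Δ, sef1Δ and yrm1Δ, and 10 of them passed in at least 1 (5.18%) and none in all 3. Over all 1622 regions tested in at least 1 of these libraries 6.17% passed, and over the 1540 not enriched with Gal4 1.69% did. NDE1/TIF34, with the promoter of the external NADH dehydrogenase gene NDE1, held 45 insertions in sef1Δ (fold 4.58, adjusted p = 2.10e-11 by Fisher's exact test) and 30 in yrm1Δ (4.13, 2.88e-07), against 25 in the Gal4 library (0.753). It held 9 in hmo1Δ and 10 in leu3Δ, which did not pass. Gal4 folds rest on the background of 103922 and those of the other libraries on that of 84109, so they are not on like terms. PDR16/ELA1, MDH2/TRM13 and KNH1/STP4 also passed in both sef1Δ and yrm1Δ, with 13 to 21 insertions each. In the Gal4 library they held 20, 31 and 21 insertions, at folds of 1.56, 1.93 and 1.19, under the threshold of 2.

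Of these, 2 regions lie beside the gene that the strain lacks. ARG82/HMO1, with the promoter of HMO1, a high mobility group protein gene, held 35 insertions in hmo1Δ (fold 36.9, adjusted p = 3.83e-28 by Fisher's exact test), 2 in leu3Δ, 6 in sef1Δ and 1 in yrm1Δ, against 9 in the Gal4 library. UBP13/SEF1 held 18 insertions in sef1Δ (8.72, 2.35e-07), 0 in hmo1Δ, 1 in leu3Δ and 0 in yrm1Δ, against 0 in the Gal4 library. As deposited, UBP13/SEF1 spans chromosome II, 95882 to 100115, and overlaps the SEF1 gene itself by 3446 bp in the R64 annotation. In leu3Δ the region above background was GAB1/PAU4, upstream of the seripauperin gene PAU4, with 12 insertions (4.66, 0.0490), against 0 in the Gal4 library, and that call was lost with the background of the Gal4 table.

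The regions below background in these libraries were ones with many background insertions and few in the library. In sef1Δ they included ACA1/SPO73, with 0 insertions against 61 in the background (adjusted p = 0.00263 by Fisher's exact test), and LEU1/PMA1, led by Leu3, with 0 against 44 (0.0225). They also included PXR1/YOR1, with 0 against 46 (adjusted p = 0.0240 by Fisher's exact test), and IME1/RPL43B, with 0 against 49 (0.0110), both led by Yrr1. In hmo1Δ they were ISF1/ADH3, with 1 against 145, and SRY1/JEN1, with 1 against 124, and in yrm1Δ ISF1/ADH3, with 5 against 145.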

How the data were processed

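Per the labels' protocols, genomic DNA was cut in 3 separate restriction digests and Ty5 junctions were amplified by inverse PCR. Novoalign and sacCer2 are named in the submitters' processing notes, and the steps between reads and tables are not given in the sources used here. The authors deposited, per library, a count of insertions for each region between genes in the library and in a background set, both as a fraction of their totals, and a hypergeometric p-value. Totals were computed as the count over the deposited fraction at the region with most insertions.

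The 15 tables other than Gal4 list 4748 regions and that of Gal4 lists 4532, of which 4383 have the same flanking genes. Coordinates are those of the 15 tables, unconverted, and 22 of these regions differ in length by over 20 bp between tables. Promoters were assigned from the strand in systematic names, and genes inside regions and list members from a RefSeq gene table of the R64 assembly. PCR without molecular tags gives no independent count of molecules, so intervals cover counting error only. They are conditional binomial intervals of the ratio without the 0.5, for values the rule had chosen. Fisher's exact test, two-sided, used a threshold of 0.05 and was checked on simulated data.

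Named regions were the 12 enriched in the most libraries, the 8 further ones with the largest summed share, the top 2 for each of 5 pairs of factors, 2 for each of 16 gene lists, 3 on each side of the threshold, and 5 with and 5 without Gal4 enrichment that stood highest in the libraries with a further deletion. Further regions (SNG1/YPP1, GAL3/SNQ2, KTI12/HAP4, LYS2/TKL2, RPL43B/SFC1, KNH1/STP4 and the small groups of 5 or fewer, those passing or below background) were chosen after their values were seen. The members and lists were chosen with earlier results of these data known. Python 3.11.15, numpy 2.4.6, scipy 1.17.1, pandas 2.3.3 and matplotlib 3.10.9 were used.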

Additional observations from a re-analysis of the deposited data

How the results depend on the processing

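The counts depended most on the fold threshold. At a fold of 3 there were 138 regions in 2 or more libraries, 58 in 3 or more and 10 in 5 or more, of which 58 of the 138 held both promoters and 4 none; at a fold of 1.5 these were 447, 242, 82, 189 and 16. Without the tenth of regions with most background insertions the counts were 146, 58, 10, 52 and 5. By the authors' p of 0.001 with 5 insertions 169 regions were in 2 or more libraries, 164 of them among the 275. Regions without a promoter numbered 17 with a minimum of 5 insertions and 1 without regions holding another gene. Leaving out 1 factor library in turn gave 229 to 270 regions in 2 or more libraries, 91 to 113 in 3 or more and 21 (without Hal9) to 32 in 5 or more. The 1 region above background in leu3Δ became 5 by the fold of 2 with 8 insertions, 0 with the background of the Gal4 table, 0 with no minimum of insertions and 2 by the authors' p.

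Every other count was within 1.5 times under its alternatives, but not always with the same regions: the background of the Gal4 table gave 275 regions, of which 223 were among the 275 above. A fold of 2 over both backgrounds, chosen after seeing the data, left those 223, and leaving out the 6 regions beside plasmid, marker or deleted genes (HMO1 and SEF1 added after seeing the data) left 269. For 52 named regions, 94 of 1408 values of the number of enriched libraries moved by over 1.5 times, 79 of them down. No paired analysis was possible because each group has 1 library. Counts of motifs in promoter sequences were not run because sequences were not used here. Counts of regions shared by pairs of factors served to choose the pairs for the named regions. But for Yrm1 with Yrr1 these counts are not reported, because the factor libraries share a background. Depth limits the libraries with a further deletion most, where 8 insertions stand for 57.6 (sef1Δ) to 115 (hmo1Δ) per 100000.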
